A study of Sus scrofa with 12 samples.

Results

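Endothelial identity genes were followed in ovaries of young sows not yet bred (gilts; pig, Sus scrofa) of the New French Yorkshire line, with the left ovary taken from each of 12 animals. The set holds 10 genes by which the cells lining blood vessels are recognised: PECAM1, CDH5, VWF, CLDN5, EMCN, SOX17, SOX18, ERG, ESAM and ROBO4. A member was taken from the table at the row whose gene name was exactly its symbol, and at the row with the highest mean count where a symbol had several. By this rule 7 of the 10 genes had a locus of their own among 29150 loci, and all 7 were past the filter of a mean of at least 0.5 FPKM (fragments scaled to transcript length and library size). SOX17 and ESAM stood only in loci joined with another gene. No row carried the name CLDN5.

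The ES group held 6 gilts with regular repeated estrus that were killed in the third estrus. The NES group held 6 full sisters in which no estrus had been recorded. Both groups came from the same farm and generation, each gilt gave 1 library, and estrus was watched for from 165 days of age. The age at slaughter and the ovarian stage of the NES gilts were not stated in the labels. Whole ovaries were sequenced as total RNA depleted of ribosomal RNA, so vessels share each library with follicles, luteal tissue, stroma and blood.

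Endothelial cells line arteries, capillaries, veins and lymphatics, and hold together through VE-cadherin, tight junction and immunoglobulin-like adhesion molecules. Their identity is kept by transcription factors of the ETS and SOX families, of which ERG, SOX17 and SOX18 belong to this set. In the ovary the vessel bed is rebuilt in every cycle: capillaries surround the theca of growing follicles, stay outside the granulosa until ovulation, and then grow into the forming corpus luteum.

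The libraries held 58140547 to 68961955 counts. The granulosa genes FSHR and INHA were detected in all 12 libraries, at 9.33 to 97.8 CPM for FSHR and 10.7 to 3553 CPM for INHA (counts per library total, scaled with TMM factors). INHA was lowest in ES3. Some ES libraries stood apart in genes of other cells: ES3 summed 1221 CPM over 11 macrophage genes, against 73.2 to 170.6 CPM in NES libraries, and ES6 summed 257 CPM over 8 epithelial and ciliated cell genes, against 4.04 to 18.5 CPM in NES libraries. The luteal and steroid cell sum was highest in ES1, at 5564 CPM. Where 1 of these libraries carried much of a difference, the value without it is given beside it.

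All 7 measured members had positive differences between ES and NES ovaries, between 0.068 and 0.63 on the log2 scale, and none passed the test. Of all loci tested 56.2% had positive differences. The members were positively correlated across libraries, so their signs are not 7 separate observations. With p-values from the quasi-likelihood test of edgeR, adjusted by Benjamini-Hochberg over all loci and called under 0.05, 0 of the 7 members were called, against 0.945% of 20421 loci (31 higher and 162 lower in ES). At an unadjusted p under 0.05 it had 1 of the 7, SOX18, beside 16.3% of all loci. With 1 library left out this count was 4 without NES6 and 0 without ES1, ES2, ES3, NES1, NES3 or NES4 in turn. DESeq2 called 0 members with 1 under an unadjusted 0.05 (461 loci higher and 594 lower), and limma on log2(FPKM + 0.5) called 0 members with 0 under an unadjusted 0.05 (17 loci higher and 313 lower). In that limma fit 6 of the 7 members had positive differences. The median over the members was 0.25, against 0.043 over all loci tested. The median was 0.40 without NES6 and 0.25 without ES3 and ES6 together. No member separated the groups, while 1.42% of all loci did. In whole ovaries, the number of endothelial cells and the RNA per endothelial cell cannot be told apart.

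**Figure D1:**
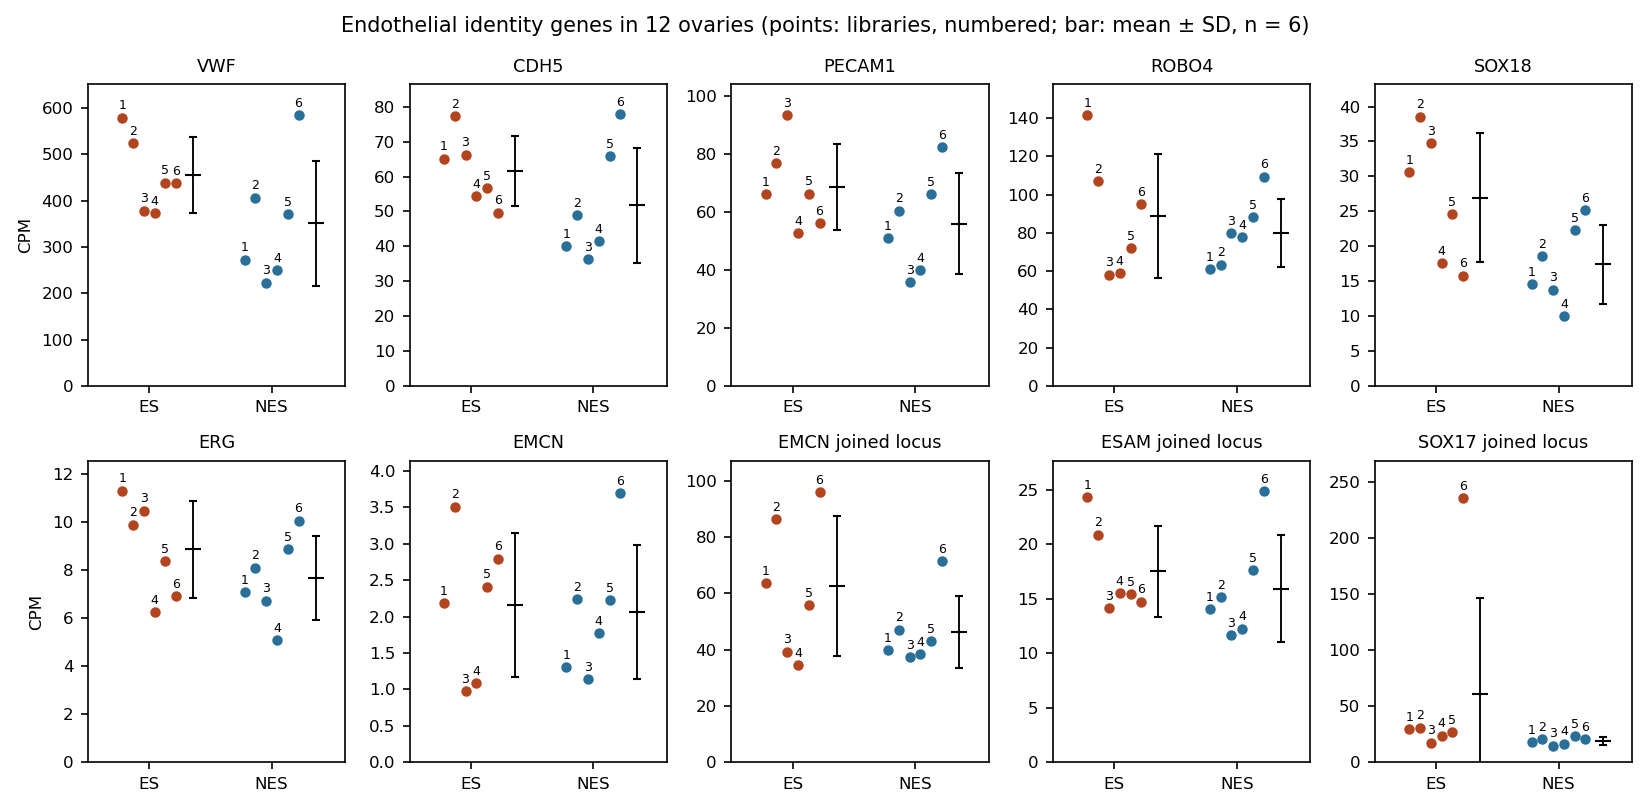
Normalised counts (CPM, vertical axis from 0) of the 7 measured members and of the joined loci that hold EMCN, ESAM and SOX17, with each point 1 library, numbered as in its title, and bars for the mean ± SD of 6 libraries. The groups overlap in every panel, NES6 is the highest NES library for every member, and ES6 stands at 236 CPM for the joined SOX17 locus, where the lower error bar runs below the axis.

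CDH5 (MSTRG.18063, chromosome 6, 27108499 to 27143276, plus strand, build Sscrofa11.1) encodes VE-cadherin, the adherens junction protein of endothelium. It ran from 49.6 CPM over a median of 60.9 to 77.4 CPM in ES, and from 36.3 CPM over a median of 45.3 to 77.9 CPM in NES. All 6 ES libraries lay above the NES median, but NES6 was level with the highest ES library, ES2. On the log2 scale ES minus NES was 0.25 ± 0.19 (SE; edgeR adjusted p = 0.553), with a 95% interval of 0.892 to 1.59 for the fold of ES over NES. It was 0.40 without NES6 and 0.17 without NES3.

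PECAM1 (MSTRG.3984, chromosome 12, 14636641 to 14723296, plus strand) encodes CD31, which endothelial cells, platelets and leukocytes carry on their surface. It ran from 52.6 CPM over a median of 66.1 to 93.3 CPM in ES, and from 35.6 CPM over a median of 55.7 to 82.4 CPM in NES. The highest value was in ES3, the only ES library above every NES library, and the lowest in NES3. ES minus NES was 0.29 ± 0.21 in log2 (adjusted p = 0.514), a fold of 1.23 with an interval of 0.898 to 1.67.

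ROBO4 (MSTRG.23589, chromosome 9, 52081840 to 52097795, minus strand) encodes an endothelial guidance receptor known to stabilise vessels. It ran from 58.2 CPM over a median of 83.5 to 142 CPM in ES, and from 61.1 CPM over a median of 78.8 to 109 CPM in NES. The ES values spread on both sides of the NES range, with ES1 above it and ES3 and ES4 below it. The log2 difference of 0.15 ± 0.23 (adjusted p = 0.789) changed sign without ES1, to -0.039.

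EMCN encodes endomucin, a sialomucin of capillary and venous endothelium. The locus with its exact name (MSTRG.22769, chromosome 8, 120222666 to 120238149, plus strand) overlaps only the last 5306 of the 53881 bases of the RefSeq gene and held 62 to 232 counts per library. Its CPM ran from 0.979 over a median of 2.30 to 3.51 in ES, and from 1.14 over a median of 1.99 to 3.69 in NES. Its log2 difference was 0.068 ± 0.36 (adjusted p = 0.949) and changed sign when 1 library was left out, for ES2, ES6, NES1 and NES3 each, the lowest being -0.12 without ES2, and in each limma fit on FPKM (-0.050 to -0.018).

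A locus joined with a small nuclear RNA (MSTRG.22768, 120145621 to 120229626) covers the whole RefSeq EMCN gene and averaged 3378 counts, a value that belongs to both genes. This joined EMCN locus, looked up after the table was seen, ran from 34.6 CPM over a median of 59.8 to 95.9 CPM in ES, and from 37.3 CPM over a median of 41.4 to 71.3 CPM in NES. ES6 and ES2 were above every NES library and ES4 below. This gave a log2 difference of 0.44 ± 0.26 (adjusted p = 0.420), and 0.28 without ES6.

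ESAM, an adhesion molecule of endothelial tight junctions and platelets, shared its locus with VSIG2 (MSTRG.23585, chromosome 9, 51977458 to 51992395, minus strand), so that the value belongs to both genes. The joined ESAM locus ran from 14.1 CPM over a median of 15.5 to 24.3 CPM in ES, and from 11.6 CPM over a median of 14.6 to 24.9 CPM in NES. ES1 and NES6 were the highest libraries of their groups and almost equal. In log2 the difference was 0.13 ± 0.21 (adjusted p = 0.792), and 0.011 without ES1.

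CLDN5, the main claudin of endothelial tight junctions, could not be given a value. Its RefSeq gene of 893 bases on chromosome 14 lies inside a long locus named for MED15, DGCR2, ZNF74, ESS2 and HIRA and also under CDC45 on the other strand.

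VWF (MSTRG.17372, chromosome 5, 64517219 to 64678840, plus strand) encodes von Willebrand factor, the clotting protein that endothelial cells store in Weibel-Palade bodies and that megakaryocytes also make. It ran from 373 CPM over a median of 438 to 579 CPM in ES, and from 223 CPM over a median of 322 to 584 CPM in NES. The lowest ES value, in ES4, was close to the third highest NES value, in NES5, while NES6 was above every ES library. VWF had a log2 difference of 0.37 ± 0.22 (adjusted p = 0.430), a fold of 1.30 with an interval of 0.928 to 1.81. It was 0.58 without NES6.

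The largest difference among the members was that of a transcription factor. SOX18 (MSTRG.10732, chromosome 17, 62869870 to 62871748, minus strand) encodes a SOX factor that acts in vessel and lymphatic development, and its locus lies inside the TCEA2 locus of the opposite strand, with which reads could be shared. It ran from 15.8 CPM over a median of 27.6 to 38.5 CPM in ES, and from 10.0 CPM over a median of 16.6 to 25.1 CPM in NES. ES1, ES2 and ES3 were above every NES library, and the other 3 ES libraries lay within the NES range. SOX18 had a log2 difference of 0.63 ± 0.27 (edgeR unadjusted 0.0339, adjusted p = 0.262), a fold of 1.55 with an interval of 1.04 to 2.31. It lay between 0.50 and 0.77 with any 1 library left out.

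ERG (MSTRG.6674, chromosome 13, 201996905 to 202301909, minus strand) encodes the ETS factor that maintains endothelial gene expression. It ran from 6.26 CPM over a median of 9.13 to 11.3 CPM in ES, and from 5.09 CPM over a median of 7.60 to 10.1 CPM in NES. ES1 and ES3 were above every NES library. ERG had a log2 difference of 0.21 ± 0.19 (adjusted p = 0.624), a fold of 1.16 with an interval of 0.867 to 1.55. It was 0.12 without ES1 and 0.12 without NES4.

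SOX17, a SOX factor of arterial endothelium that epithelium of the reproductive tract also makes, stood only in a locus of 299066 bases joined with ENSSSCG00000031906 (MSTRG.15648, chromosome 4, 76558111 to 76857176, minus strand). The joined SOX17 locus ran from 17.6 CPM over a median of 28.2 to 236 CPM in ES, and from 15.0 CPM over a median of 19.2 to 23.7 CPM in NES. ES6 held the 236 CPM, and the next ES library, ES2, 31.1 CPM. ES3 was within the NES range, and the other 5 ES libraries were above every NES library. The joined locus had a log2 difference of 1.67 ± 0.60 (adjusted p = 0.202), and 0.43 without ES6. In the same library FOXJ1, the transcription factor of motile cilia, stood at 121 CPM, against at most 0.302 CPM in any other library, and CDH1, the epithelial cadherin, at 22.4 CPM, against at most 10.6 CPM. The part of these cells in the SOX17 value was not tested.

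**Figure D2:**
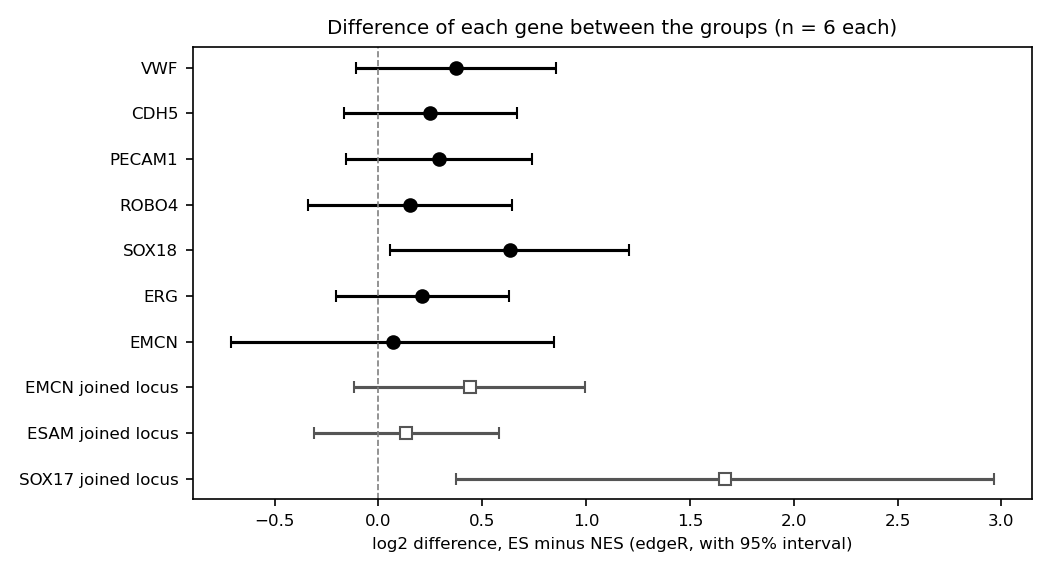
Log2 difference between ES and NES (horizontal axis) with its 95% interval from edgeR for the 7 members (filled circles) and the joined loci (open squares), n = 6 per group. The intervals of SOX18 (0.056 to 1.21) and of the joined SOX17 locus (0.37 to 2.96) lie above 0, those of the other loci cross it, and none of the loci passed after adjustment over all loci.

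Set against each other by FPKM, which is scaled to transcript length, VWF was the most abundant member, at 19.7 ± 5.52 FPKM over the 12 libraries (SD), and above SOX18 in all 12. The lengths behind the deposited FPKM were not checked, so this order holds for the loci as assembled. SOX18 averaged 9.96 ± 3.76 FPKM and was above CDH5 in 11 of 12 libraries. CDH5 (6.60 ± 1.57 FPKM), ROBO4 (6.12 ± 1.61) and PECAM1 (5.71 ± 1.52) had overlapping ranges. CDH5 was above ROBO4 in 8 libraries and ROBO4 above PECAM1 in 7. Within libraries CDH5 was above PECAM1 in all but ES3 and NES1. EMCN (1.19 ± 0.522 FPKM, for its short locus) and ERG (0.958 ± 0.203 FPKM) were lowest and exchanged places, with EMCN higher in 7 libraries. The gap between PECAM1 and EMCN held in all 12 libraries, for the short EMCN locus and for the joined one. The joined locus over the whole EMCN gene averaged 3378 counts and 1.56 FPKM, against 3878 counts and 5.71 FPKM for PECAM1. By mean FPKM, EMCN thus stood between PECAM1 and ERG with either locus, while by counts the joined locus came close to PECAM1.

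High and low libraries stood in both groups. With the log2 CPM of each member set relative to its own mean, the average over the 7 members ran from -0.30 in ES4 to 0.53 in ES2, a range of 0.84 within ES, and from -0.54 in NES3 to 0.50 in NES6, a range of 1.04 within NES. The group means were 0.14 ± 0.301 in ES and -0.14 ± 0.412 in NES (SD, n = 6 each). ES2 and NES6 had all 7 members above the median of the 12 libraries, and ES1, ES5 and NES5 had 6. ES4, NES1 and NES4 had none above it, and NES3 had 1. The highest value of 6 members was in ES1, ES2 or NES6, and the exception was PECAM1, highest in ES3. The coefficient of variation was larger in NES than in ES for 4 of 7 members, among them VWF (18.0% in ES and 38.4% in NES) and CDH5 (16.3% in ES and 31.9% in NES). For ERG, counted among the 4, it was almost equal, at 22.73% in ES and 22.75% in NES. For ROBO4 it was 36.6% in ES and 22.2% in NES.

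**Figure D3:**
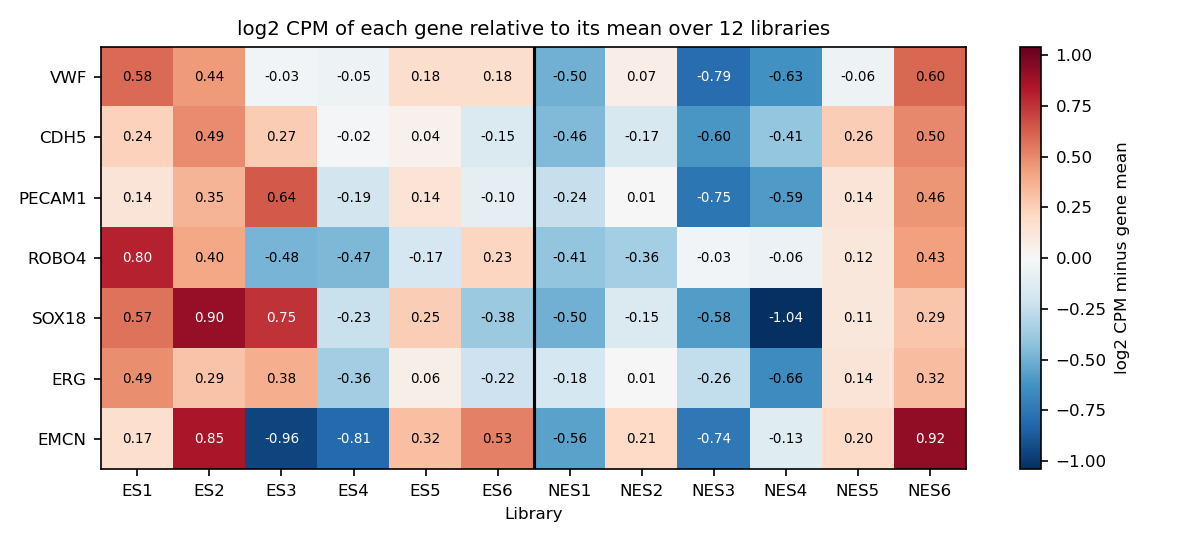
Log2 CPM of each of the 7 members (rows) relative to its mean over the 12 libraries (columns, ES left of the line and NES right), with red above and blue below the mean. ES2 and NES6 are above the mean in every row, ES4 and NES3 are low in most rows, and ES3 is high for PECAM1, SOX18 and ERG but lowest for EMCN and ROBO4.

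All 21 pairs of members had positive correlations of log2 CPM over the 12 libraries, with a median Pearson r of 0.689 and a range of 0.192 to 0.922. In permutation tests with 100000 resamples, adjusted over the 21 pairs, 12 pairs passed 0.05 by r and 12 by Spearman's rho. The median r was 0.629 without the 2 libraries farthest from the median of the first gene. Within NES all 21 pairs were positive, with a median r of 0.863, and within ES 19 were, with a median of 0.483, so the relation was not only a step between the groups. Libraries share depth scaling and cell make-up over all genes.

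SOX18 and ERG, both transcription factors, had the highest r of the 21 pairs (r = 0.922, permutation p = 7e-05, adjusted p = 7.35e-04; rho = 0.895, permutation p = 2.6e-04, adjusted p = 0.00173). Without the 2 farthest libraries r was 0.907, and within the groups it was 0.902 in ES and 0.993 in NES (exact p = 0.025 and 0.00139). PECAM1 and SOX18 had the highest rho (r = 0.885, permutation p = 1.8e-04, adjusted p = 0.00126; rho = 0.937, permutation p = 7e-05, adjusted p = 0.00105), with 0.868 within ES and 0.903 within NES (exact p = 0.0306 and 0.0167), and r = 0.853 without the 2 farthest libraries. PECAM1 and CDH5 followed each other as well (r = 0.895, permutation p = 7e-05, adjusted p = 7.35e-04; rho = 0.916, permutation p = 1e-04, adjusted p = 0.00105), with 0.741 within ES and 0.925 within NES (exact p = 0.0875 and 0.00972), and r = 0.816 without the 2 farthest libraries. CDH5 and SOX18 had r = 0.871 (permutation p = 3.3e-04, adjusted p = 0.00143; rho = 0.888, permutation p = 3.3e-04, adjusted p = 0.00173), 0.954 within ES and 0.863 within NES (exact p = 0.00278 and 0.0264), and 0.918 without the 2 farthest libraries. All 6 pairs among PECAM1, CDH5, SOX18 and ERG had r of at least 0.797.

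Over the 12 libraries ROBO4 and EMCN had lower values of r with these 4 genes, 0.192 to 0.464 for ROBO4 and 0.315 to 0.535 for EMCN. The highest for EMCN was with CDH5 (r = 0.535, permutation p = 0.0754, adjusted p = 0.113; rho = 0.434, permutation p = 0.163, adjusted p = 0.244), and 0.290 without the 2 farthest libraries. Within ES EMCN had r = -0.14 with PECAM1 and 0.163 with CDH5 (exact p = 0.804 and 0.739), and within NES 0.875 with PECAM1 and 0.926 with CDH5 (exact p = 0.0292 and 0.00556). ROBO4 had r = 0.192 with PECAM1 (permutation p = 0.548, adjusted p = 0.548; rho = 0.196, permutation p = 0.542, adjusted p = 0.542), and 0.247 without the 2 farthest libraries. With VWF it had r = 0.582 (permutation p = 0.0481, adjusted p = 0.0777; rho = 0.545, permutation p = 0.0705, adjusted p = 0.114), 0.961 within ES and 0.522 within NES (exact p = 0.00556 and 0.300), and 0.812 without the 2 farthest libraries. EMCN and ROBO4 had r = 0.689 (permutation p = 0.0142, adjusted p = 0.0251; rho = 0.685, permutation p = 0.0166, adjusted p = 0.029), and 0.529 without the 2 farthest libraries. The library that set these genes apart most visibly was ES3, which had the highest PECAM1, the second highest SOX18 and ERG, and the lowest EMCN and ROBO4 of all 12. The difference between these correlations was not tested.

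The loci with the most similar pattern, by Pearson r of log2 CPM with the average of the 7 members over 12 libraries, were CARD10 (r = 0.952, rho = 0.937), PDE2A (0.952, rho = 0.944), TAL1 (0.935, rho = 0.860), SHANK3 (0.923, rho = 0.923) and ACKR2 (0.914, rho = 0.888). They were picked for these values among all named loci tested, so the values carry no test. Their r within ES lay between 0.937 and 0.966 and within NES between 0.903 and 0.955. Their log2 differences were 0.41 for CARD10, 0.32 for PDE2A, 0.34 for TAL1, 0.27 for SHANK3 and 0.61 for ACKR2, with adjusted p of 0.383 to 0.532. TAL1, a transcription factor of blood and endothelial precursors, was at 54.4 CPM in NES6, above all ES libraries, of which the highest was ES2 at 50.7 CPM.

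The scaling of a library drops out of a ratio of 2 genes within it, but RNA from other cells that make one of the genes still enters the ratio. The ratio of VWF to CDH5 was 2.88 ± 0.247 on the log2 scale in ES and 2.74 ± 0.211 in NES (SD, n = 6 each), a difference of 0.14 (exact two-sided permutation test, p = 0.297). The ratio of PECAM1 to CDH5 was 0.14 ± 0.202 in ES and 0.11 ± 0.174 in NES, a difference of 0.034 (exact permutation p = 0.755). Its highest value was 0.49 in ES3, the library with the large macrophage sum, and the difference was -0.036 without it. The ratio of the joined SOX17 locus to SOX18 was 0.52 ± 1.72 in ES and 0.19 ± 0.331 in NES, a difference of 0.34 (exact permutation p = 0.879), with 3.90 in ES6 and a difference of -0.34 without it. Adjusted over these 3 ratios each p was 0.879, and 6 against 6 libraries allow no p under 0.00216. A ratio of EMCN to CLDN5 could not be formed.

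**Figure D4:**
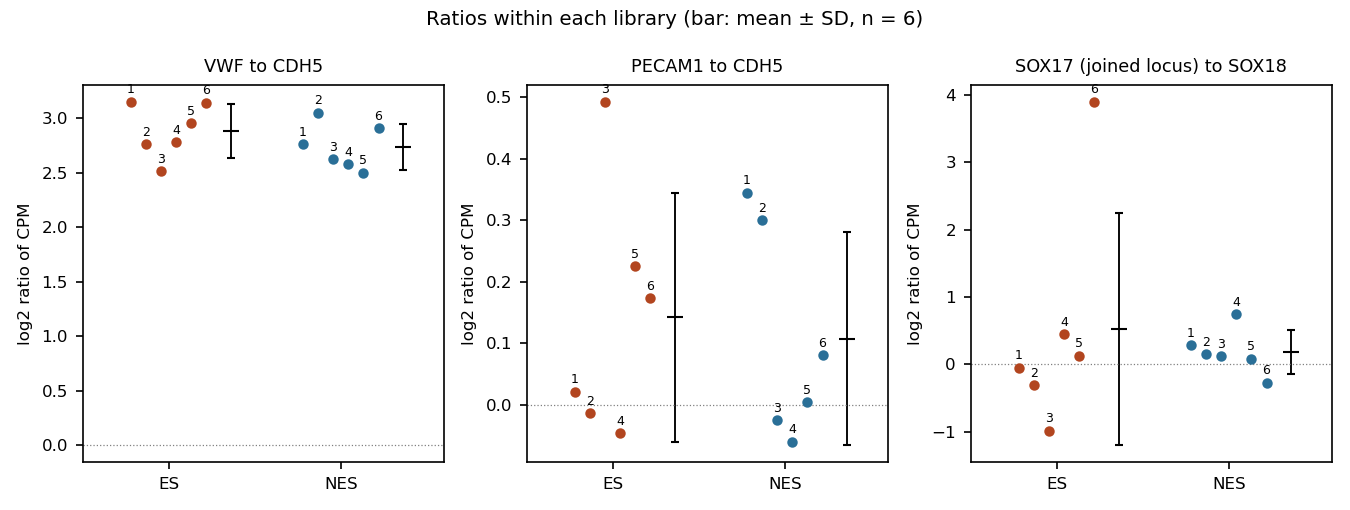
Log2 ratio of the CPM of 2 endothelial genes within each library, by group, with numbered points for libraries and bars for the mean ± SD (n = 6). The groups overlap in each panel, ES3 is highest for PECAM1 to CDH5 at 0.49, and ES6 stands apart for SOX17 to SOX18 at 3.90.

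Cells that share a member with endothelium were measured by their own genes. Of 10 platelet and megakaryocyte genes 6 had a locus. The platelet chemokine PPBP was between 0 and 0.413 CPM and was 0 in ES4, NES2 and NES4, where counts of 0 allow up to 0.0495, 0.0486 and 0.0493 CPM, and the platelet receptor gene GP1BA was at most 0.939 CPM. Another part of that receptor, GP9, was at 4.03 to 14.7 CPM in ES and 7.36 to 10.5 CPM in NES, and the platelet integrin ITGA2B at 209 to 305 CPM in ES and 243 to 311 CPM in NES. The ITGA2B locus is long (chromosome 12, 18776205 to 18877389), and its mean was only 3.07 FPKM in ES and 3.57 FPKM in NES. How much of its CPM is platelet RNA was not tested. ITGB3, an integrin of platelets and macrophages, was at 227 CPM in ES3 and at most 36.1 CPM elsewhere. The 11 macrophage genes with a locus summed to 90.5 to 1221 CPM in ES and 73.2 to 170.6 CPM in NES. The macrophage receptor CSF1R was at 168 CPM in ES3 and 15.9 to 37.2 CPM elsewhere. PECAM1 was highest in ES3 too, and its log2 difference was 0.18 without ES3. The part of macrophages in the PECAM1 value was not tested.

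The other endothelial genes had mostly positive differences too. Lists of 72 further genes were drawn up with earlier results of these data known, and 55 of them were tested. Of the 55, edgeR called 0 and limma on log2(FPKM + 0.5) 0, while DESeq2 called 2, PROCR and HEY2. Without ES1 or without NES6 edgeR called PROCR too. In edgeR 11 had an unadjusted p under 0.05 (beside 16.3% of all loci), with 23 without NES6, 4 without NES3 or NES4, and 3 in limma. In the full edgeR test 47 of 55 had positive log2 differences (85.5%, beside 56.2% of all loci), with a median of 0.35. All come from the same libraries, so their signs are not 55 separate observations. In limma on log2(FPKM + 0.5) fewer were positive, at 12 of 16 surface and junction genes and 7 of 10 transcription factors. Arterial genes had 4 of 6 and venous genes 2 of 5, and the signalling and lymphatic counts were unchanged.

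Of the 16 tested surface and junction genes 14 had positive differences (median 0.28). The smallest p-values were those of ICAM2, an adhesion molecule for leukocytes (0.96, and 0.56 without ES3), CALCRL, the adrenomedullin receptor (0.36, and 0.23 without ES3), and ACVRL1, the endothelial BMP receptor ALK1 (0.74, and 0.18 without ES3). In ES3 ACVRL1 reached 126 CPM, against at most 38.8 CPM in any other library. Of the 10 tested transcription factors 8 were positive (median 0.30), with the ETS factors ELK3 (0.40, and 0.24 without ES3) and ETS2 (0.41, and 0.21 without ES1) and the factor GATA2 (0.42) at the smallest p-values. Of the 12 tested signalling and vessel-wall genes 10 were positive (median 0.35).

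PROCR, the endothelial protein C receptor, came nearest to a call among all these genes. The mean was 5.16 ± 1.18 CPM for ES against 2.89 ± 0.729 CPM for NES (SD over 6 libraries each), and 5 of 6 ES libraries were above every NES library. PROCR had a log2 difference of 0.84 ± 0.21 with an adjusted p of 0.0755 in edgeR and 0.00495 in DESeq2, and in edgeR 0.0421 without ES1 and 0.0322 without NES6. The adaptor SHE had a difference of 0.36, and the junction protein CCM2L one of 0.45 (0.28 without ES3).

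Of the tested arterial genes only HEY2 had a negative difference. GJA4, the connexin of arterial endothelium, had a mean of 22.1 ± 6.03 CPM for ES against 14.3 ± 3.26 CPM for NES (log2 0.63, adjusted p = 0.155). The Notch ligand DLL4 had a log2 difference of 0.63 (adjusted p = 0.279), and 0.39 without ES6. HEY2, a Notch target of arterial endothelium, had a mean of 28.3 ± 7.83 CPM for ES against 46.2 ± 11.7 CPM for NES, and 5 of 6 ES libraries were under the lowest NES library (log2 -0.71, adjusted p = 0.133 in edgeR and 0.0398 in DESeq2). HEY2 was highest in NES1 and lowest in ES3, as were the granulosa genes FST and IHH, but not INHA, which was highest in ES1. The part of other cells in the HEY2 value was not tested. The other 5 of 6 tested arterial genes were positive, with a list median of 0.30.

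All 6 tested lymphatic genes were positive, between 0.35 and 0.54 (median 0.39), with RELN, a secreted glycoprotein, at 0.54, the VEGF receptor FLT4 at 0.41 (0.24 without ES3) and the chemokine CCL21 at 0.37 (0.17 without ES2). Of the 5 tested venous and postcapillary genes 4 were positive (median 0.089). VCAM1, the adhesion molecule of activated endothelium, had 0.49 (0.31 without ES3), the venous factor NR2F2, which stromal cells also make, -0.31, and the venous receptor EPHB4 0.089 (0.028 without ES3). NR2F2 had 2 loci of its name, and the one used had the higher count but not the higher FPKM. Of the 12 pericyte and vascular smooth muscle genes 10 were positive (median 0.36), with the proteoglycan CSPG4 at 1.22 (0.59 without ES4) and the pericyte gene RGS5 at 0.60 (0.37 without ES1). None of these 3 lists had a called gene in any fit run.

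**Figure D5:**
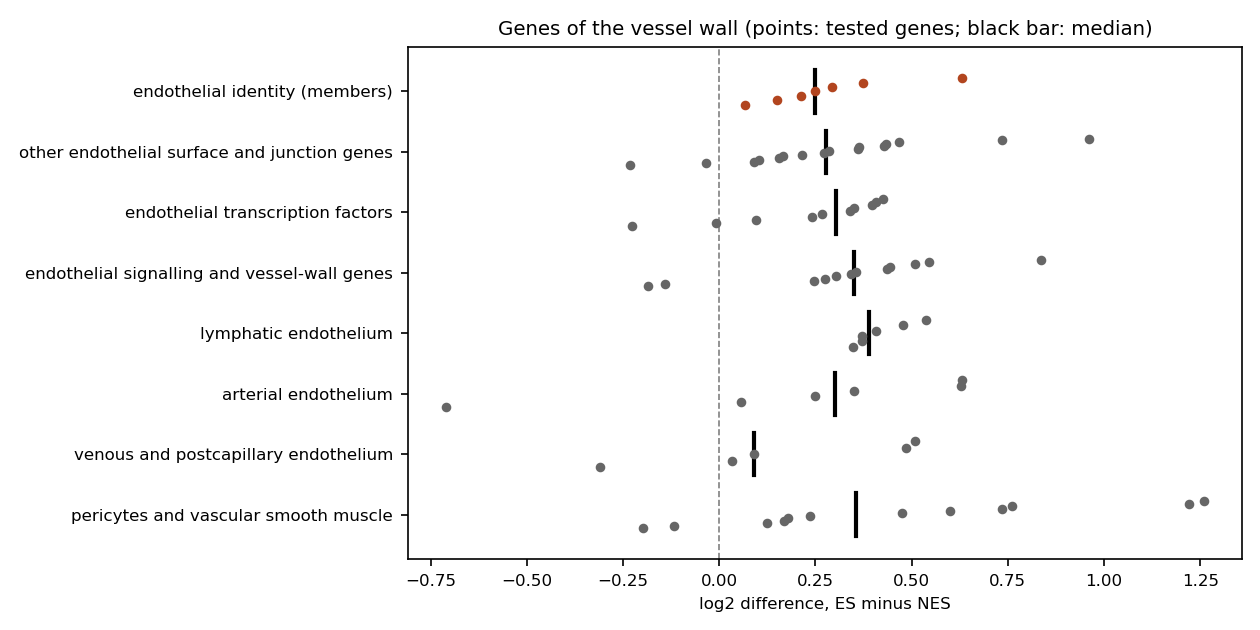
Log2 difference between ES and NES (horizontal axis) of every tested gene of the members' list, of 6 other endothelial lists and of the pericyte and smooth muscle list, with a black bar at each list's median. The medians lie between 0.089 and 0.39, and HEY2 at -0.71 is farthest below 0.

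Among the lists for other cells, edgeR called 1 gene, IHH, the hedgehog ligand of granulosa cells (log2 -3.01, adjusted p = 0.0420). Its call was lost in edgeR without ES2, ES4, ES5, ES6, NES1, NES2, NES3, NES4 or NES5 in turn (adjusted p = 0.0548 to 0.109), without a filter on low values (0.056), with the title number as a block (0.128) and without ES3 and ES6 together (0.101). DESeq2 called IHH and also the granulosa genes FST (adjusted p = 0.000246) and INHBB, the luteal and steroid cell genes STAR (0.000637), PTGFR (0.000745) and CYP11A1, the lymphocyte gene CD4 (0.0193) and the epithelial genes CDH1 (0.0115) and UPK3B. The call of CD4 rests on 0 to 85 counts per library. The 3 limma fits called IHH and FST (FST at 0.0344 to 0.044), and PTGFR was called with a pseudocount of 1 (0.0471).

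In the log2 differences of edgeR, the 9 tested granulosa genes had a median of -0.73, with FST at -2.03. They differed in sign, with 4 of the 9 positive and a range of -3.01 to 1.51. Positive medians were found for 6 luteal and steroid cell genes (1.49, and 0.94 without ES1), with PTGFR at 1.54 and STAR at 2.88. The 10 macrophage genes had a median of 1.23, and -0.0089 without ES3, with LAPTM5 at 1.45 (0.24 without ES3) and LYZ at 4.65 (-0.26 without ES3). The 5 lymphocyte genes had 1.02, with CD4 at 2.21 and ZAP70 at 0.73. The CD4 locus was short (chromosome 5, 63910933 to 63911518) and held only 0 to 85 counts per library. The 6 epithelial genes had 2.14, and 1.05 without ES6, with CLDN4 at 4.16 and CDH1 at 1.89 (1.92 and 1.21 without ES6). The 6 stromal genes had a median of 0.22, and 0.024 without ES1, with TCF21 at -0.74 and LUM at 1.13 (0.51 without ES6). TCF21 had 2 loci of its name, and the one used had the higher count but not the higher FPKM. The 3 platelet genes had 0.11, and -0.086 without ES3, with ITGB3 at 1.20 (-0.26 without ES3) and ITGA2B at -0.13. The 2 red cell genes had 0.42, and 0.087 without ES1, with EPB42 at 0.41 and ALAS2 at 0.44 (-0.23 without ES1).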

How the data were processed

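Total RNA of whole ovaries went into strand-specific libraries after removal of ribosomal RNA, per the labels' protocols. Per the submitters' processing notes, HISAT2, TopHat, cutadapt and FastQC were used with build Sscrofa11.1. Which program counted, on which strand and with which annotation is not given in the sources used here, so reads of overlapping loci on opposite strands may be shared. The authors deposited a read count and an FPKM value per library for 29150 loci, per the file headers, and 1369 of these loci join several named genes.

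Groups and replicate numbers were read from the sample titles. Loci with a mean of at least 0.5 FPKM (20421) were tested with edgeR's quasi-likelihood test on the deposited counts, with TMM factors, no covariate and Benjamini-Hochberg adjustment over all of them, called under 0.05. SEs were taken from the log2 difference and the F statistic. Each library is a separate gilt, so p-values measure the spread between gilts. With no covariate the main test takes the gilts as independent, although full sisters were among them. Ratios used log2 CPM with a prior count of 2. The limit of a count of 0 is 3 counts per library, for counting error only.

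Members and gene lists were chosen with earlier results of these data known. Named genes were all members, the 3 smallest p-values of each endothelial list, the 2 smallest of each list for other cells, called genes, and the 5 loci most like the members. Values of single genes outside it (FSHR, INHA, FOXJ1, CSF1R, PPBP, GP1BA and GP9) and the joined loci were chosen after the table was seen. The edgeR step was tested on simulated data. Alternatives were DESeq2, limma on log2(FPKM + 0.5) and with pseudocounts of 0.1 and 1, other filters and factors, robust estimation, the title number as a block, summed rows, and left-out libraries. R 4.3.3 ran edgeR 4.0.16, DESeq2 1.42.0 and limma 3.58.1, and Python 3.11.15 ran numpy 2.4.6, scipy 1.17.1 and pandas 2.3.3.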

Additional observations from a re-analysis of the deposited data

Results flagged for a closer look

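In 116 groups of 6 values (members, joined and further loci, named genes and ratios in each group), 16 had a library set apart from the others by Dixon's criterion. For independent, normally distributed values chance flags about 1 in 20 groups. These groups share libraries, hold CPM values, and include genes picked by p-value, so 16 of 116 cannot be set against that share.

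The joined SOX17 locus was at 236 CPM in ES6, with 31.1 CPM in the next ES library, and the ratio of SOX17 to SOX18 was 3.90 there, with 0.445 next. CLDN4 was at 25.3 CPM in ES6, with 1.69 CPM next. In ES3, ACVRL1 was at 126 CPM (next 38.8), ELK3 at 47.3 CPM (next 32.0), ITGB3 at 227 CPM (next 36.1), LYZ at 417 CPM (next 4.05) and LAPTM5 at 309 CPM (next 46.8). In ES1, RGS5 was at 489 CPM (next 279) and ALAS2 at 5.55 CPM (next 1.73). In ES2, EPB42 was the lowest of ES at 5.38 CPM (next 6.57).

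Among NES libraries, NES6 stood apart for the joined EMCN locus at 71.3 CPM (next 47.0), for the further VWF locus MSTRG.17374 at 1.21 CPM (next 0.665), for TAL1 at 54.4 CPM (next 32.1) and for ACKR2 at 35.3 CPM (next 20.7). CALCRL was lowest in NES3, at 40.6 CPM (next 60.6).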

How the results depend on the processing

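No member was called in any of the fits run, and the members' median log2 difference lay between 0.177 and 0.403 with 1 library left out. Differences kept their sign except as follows. EMCN had -0.0281, -0.050 and -0.0176 in limma with pseudocounts of 0.5, 0.1 and 1, and -0.124 to 0.314 with 1 library left out. ROBO4 had -0.0392 to 0.261 with 1 library left out. The ratio of PECAM1 to CDH5 had -0.0359 to 0.0817 with 1 library left out and -0.0613 without ES3 and ES6 together. The ratio of SOX17 to SOX18, which was not planned with the joined locus, had -0.339 to 0.637 and -0.131. EPHB4 had -0.00407, -0.00437 and -0.00376 in the 3 limma fits. With 1 library left out, ALAS2 had -0.228 to 0.837, ITGB3 -0.26 to 1.40 and LYZ -0.255 to 4.93, and without ES3 and ES6 ITGB3 had -0.219, LYZ -0.523 and LUM -0.60. The causes were not tested.

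The count of called loci was 193 in the main test, 1055 with DESeq2, 28 without a filter, 330, 322 and 337 with limma at pseudocounts of 0.5, 0.1 and 1, 1 without ES3 and ES6, and 0 to 415 with 1 library left out. The share of higher calls among all calls was larger with DESeq2 (461 of 1055) than in edgeR (31 of 193). The median over all loci was 0.0429 in the main test, 0.0414 with median-of-ratios factors, 0.0528 without a filter and -0.066 with limma at a pseudocount of 0.1. With the title number as a replicate block 0 loci and 0 members were called, and the members' median was 0.296. Same-numbered libraries had correlated deviations of -0.0283 to 0.242, and 3 of 6 ES libraries correlated best with their own number. The labels do not say whether the title numbers mark sisters, so the block was used only as an alternative. Whether same-numbered gilts were sisters was not tested. With a filter of 1 FPKM ERG was not tested, so no median was formed. Without a genome sequence the joined loci could not be divided, and depth was lowest among the members for EMCN's short locus, with 62 to 232 counts.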

Other observations

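VWF carried its name on 4 further loci inside or beside the main one with fewer counts. One lay on the plus strand (MSTRG.17375, chromosome 5, 64539920 to 64575243), with a mean of 7.23 ± 1.41 CPM for ES against 5.87 ± 2.59 CPM for NES (SD over 6 libraries each) and a log2 difference of 0.30 (edgeR adjusted p = 0.615). The other 3 lay on the minus strand, opposite to the gene. MSTRG.17376 (64574557 to 64580613) had 3.98 ± 1.58 CPM in ES and 2.68 ± 1.06 CPM in NES, MSTRG.17373 (64522000 to 64524062) 3.11 ± 1.38 CPM in ES and 1.81 ± 0.589 CPM in NES, and MSTRG.17374 (64535016 to 64551595) 0.949 ± 0.447 CPM in ES and 0.675 ± 0.279 CPM in NES. Their log2 differences were 0.57, 0.78 and 0.49, with adjusted p of 0.249 to 0.524. As the strand setting of the counting is not given, reads of the gene and of these opposite-strand loci cannot be told apart.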
